A study of Mus musculus with 20 samples.

Results

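Matrix metalloproteinases (MMPs) and their tissue inhibitors (TIMPs) were followed in endothelial cells from inflamed and uninflamed mouse ears. The set was chosen by gene symbol and holds Mmp2, Mmp3, Mmp9, Mmp10, Mmp13, Mmp14 and the inhibitors Timp1, Timp2, Timp3 and Timp4. These are 10 of the 22180 genes that have at least 1 probe set carrying a single gene symbol, and each of the 10 had exactly 1 such probe set. RNA was measured on 20 Affymetrix mouse arrays, 1 per sample, of CD31+CD45-Ter119- cells sorted by flow cytometry from ears digested with collagenase I.

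Control mice gave 6 arrays of vehicle-treated ears and 6 of DNFB-treated ears, and NICD mice gave 4 of each, which makes 4 groups. DNFB is dinitrofluorobenzene, a hapten that causes contact hypersensitivity in skin. Per the labels, mice of the study had 5 daily tamoxifen injections, skin sensitisation with DNFB on days 0 and 1, and 1 application to the ear pinna on day 5, followed by harvest after 24 hours. Control mice are labelled only as control, so whether they carried a Cre or the transgene is not given, and no age is given. NICD mice (NICD1-EC-OE) overexpressed the constitutively active intracellular domain of the receptor Notch1 in endothelium after tamoxifen. The genotype label gives Pdgfb-CreERT2; R26-NICD, whereas the growth protocol gives CDH5-iCre, and the driver is therefore uncertain. The labels give 1 protocol for all samples and do not say how vehicle ears were treated before and at challenge. Nor do they say whether vehicle and DNFB ears came from the same mice, or whether replicates came from separate mice, so the p-values measure the spread between these samples only. For NICD vehicle replicate 4 the labels conflict, the title giving vehicle and the description DNFB; the title was followed.

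MMPs are zinc proteases that cut collagens, laminins and other matrix proteins, and that also release or inactivate growth factors and chemokines. Most are made as inactive proenzymes and are activated outside the cell or at its surface, and TIMPs bind the active enzymes and block them. In skin inflammation and vessel remodelling the balance of the proteases and their inhibitors governs the basement membrane around vessels, and these arrays measure only the mRNA side of that balance.

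Levels are the deposited log2 robust multi-array average (RMA) values, differences are on the same log2 scale with ± 1 SE, and adjusted p-values come from limma over all 14886 probe sets kept. A gene was called changed at an adjusted p under 0.05. As a background level, the 95th percentile of 1440 probe sets for odorant, vomeronasal and taste receptors was taken in each group; it was 3.95 and 3.90 in vehicle and DNFB ears of control mice, and 3.49 and 3.48 in those of NICD mice. All 10 genes passed the filter of a value above the array median on at least 4 arrays. Mmp3, Mmp9, Mmp10 and Mmp13 did so on 15, 12, 14 and 7 arrays, largely those of DNFB ears, whereas the other 6 did so on all 20. The 4 genes had thus passed mainly through the group in which they were high, and Mmp13 only through DNFB arrays. For these genes the filter therefore used values that their DNFB calls also use. Fitted without the filter, their DNFB calls were the same.

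Genotype went together with sex and with the array set. The level of Xist was 2.27 to 3.16 for control mice against 8.47 to 9.07 for NICD mice, and that of Eif2s3y 6.08 to 7.12 against 2.11 to 2.79. The median log2 value of an array lay between 3.87 and 3.98 for control mice but between 3.52 and 3.62 for NICD mice, and the lowest value between 0.412 and 0.590 but between 1.18 and 1.30. Genotype, sex and array set cannot be told apart, and every NICD difference is therefore also given after centring each array on its median. The Notch1 probe set averaged between 9.71 and 9.82 in all 4 groups, so it gave no check of the genotype labels. All 12 endothelial markers, Pecam1, Cdh5 and Kdr first among them, were above background in every group.

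Mmp13, Mmp3 and Mmp10 lie in this order, with other MMP genes between them, in a cluster on chromosome 9. Their promoters are shown because these 3 genes stood near background in vehicle ears and higher after DNFB, and because their windows alone among those matched held both motifs marked here. The lines give the 250 bases before each gene's start, from RefSeq on GRCm38.p6, 5′ to 3′ on the plus strand. Capitals mark the AP-1 motif TGANTCA and the TATA motif TATAAA.
Mmp3, chr9:7445572-7445821: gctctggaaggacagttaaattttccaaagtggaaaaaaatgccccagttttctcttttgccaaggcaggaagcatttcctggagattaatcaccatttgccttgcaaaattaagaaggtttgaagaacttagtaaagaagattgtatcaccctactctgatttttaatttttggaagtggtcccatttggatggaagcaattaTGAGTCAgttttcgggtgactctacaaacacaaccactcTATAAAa
Mmp10, chr9:7502092-7502341: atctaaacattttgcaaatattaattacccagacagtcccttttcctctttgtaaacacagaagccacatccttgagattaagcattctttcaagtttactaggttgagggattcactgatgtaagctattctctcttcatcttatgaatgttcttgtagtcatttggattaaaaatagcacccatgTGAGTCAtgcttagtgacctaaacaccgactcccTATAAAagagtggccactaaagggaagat
Mmp13, chr9:7272264-7272513: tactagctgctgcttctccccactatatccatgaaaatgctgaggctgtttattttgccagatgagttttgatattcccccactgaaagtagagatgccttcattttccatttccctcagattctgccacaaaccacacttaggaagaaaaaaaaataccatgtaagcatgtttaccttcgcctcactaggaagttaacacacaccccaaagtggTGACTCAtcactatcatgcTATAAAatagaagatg

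Relative to the gene start, the AP-1 motif began at -46 in Mmp3, at -63 in Mmp10 and at -35 in Mmp13. It read TGAGTCA in Mmp3 and Mmp10 and TGACTCA in Mmp13. The TATA motif lay between the AP-1 motif and the gene start in all 3, beginning at -7, -29 and -16. Of 32851 mouse promoter windows of 300 bases (250 before to 50 after a start), 7.81% held TGANTCA and 13.6% held TATAAA on either strand. RefSeq windows were matched for 8 of the 10 genes, those of Mmp2 and Mmp9 being unmatched, and no AP-1 or TATA motif was found in the windows of Mmp14, Timp1, Timp2, Timp3 or Timp4. The ETS motif AGGAAG, held by 35.4% of all windows, occurred in those of Mmp3, Mmp13, Mmp14, Timp1, Timp3 and Timp4. The RBPJ motif TGGGAA, the core bound by the DNA-binding partner of NICD, was held by 25.6% of all windows and occurred in those of Mmp13 and Timp1. These are matches of letters and do not show binding.

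**Figure D1:**
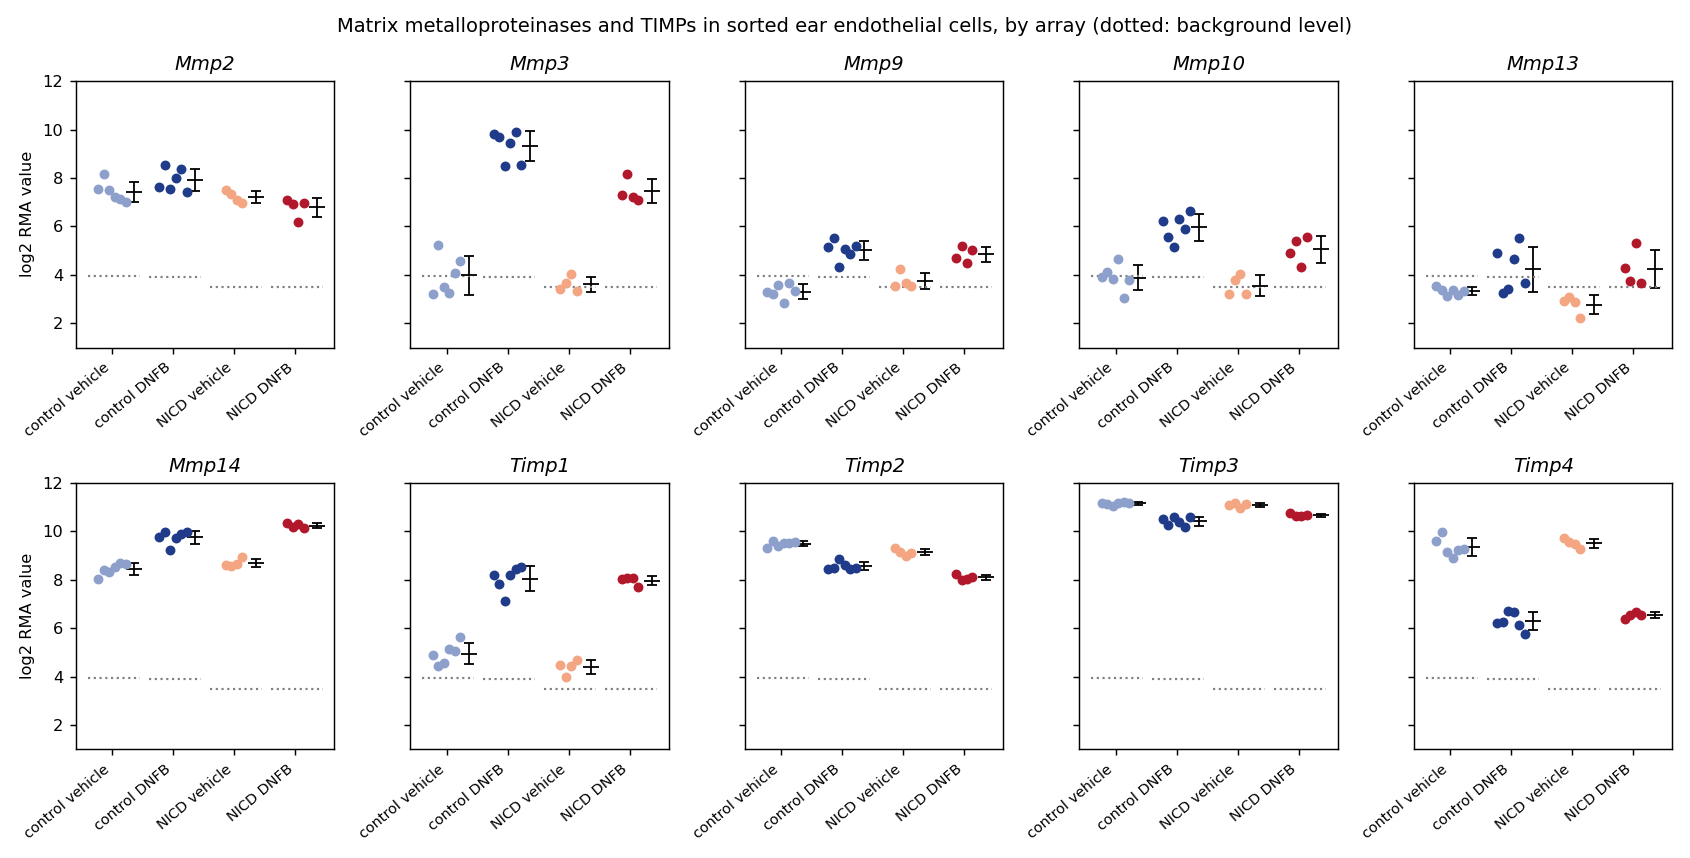
Log2 RMA value of each of the 10 genes on each of 20 arrays by group, with the group mean ± SD beside the points and the background level dotted. Mmp3 and Timp1 of DNFB ears lie above all vehicle ears, Timp4 of DNFB ears lies below all of them, and Mmp2 overlaps between vehicle and DNFB ears of each genotype.

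DNFB challenge was followed by higher mRNA of most of the proteases and of 1 inhibitor, and by lower mRNA of the other 3 inhibitors. In control mice 6 genes rose (Mmp3, Mmp9, Mmp10, Mmp13, Mmp14 and Timp1) and 3 fell (Timp2, Timp3 and Timp4). Of all probe sets tested in control mice, 47.2% were called, 23.7% higher and 23.6% lower. In NICD mice the counts were again 6 higher and 3 lower, beside 38.1% called among all probe sets, 20% higher and 18.1% lower. The largest differences in control mice were 5.34 for Mmp3, 3.10 for Timp1 and -3.06 for Timp4. The median of the 10 differences was 1.11 in control and 1.29 in NICD mice, against medians over all probe sets of -0.0012 and 0.0067. In control mice 8 of the 10 genes had groups that did not overlap, as did 26.9% of all probe sets; in NICD mice 9 did, as did 37.3%.

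**Figure D2:**
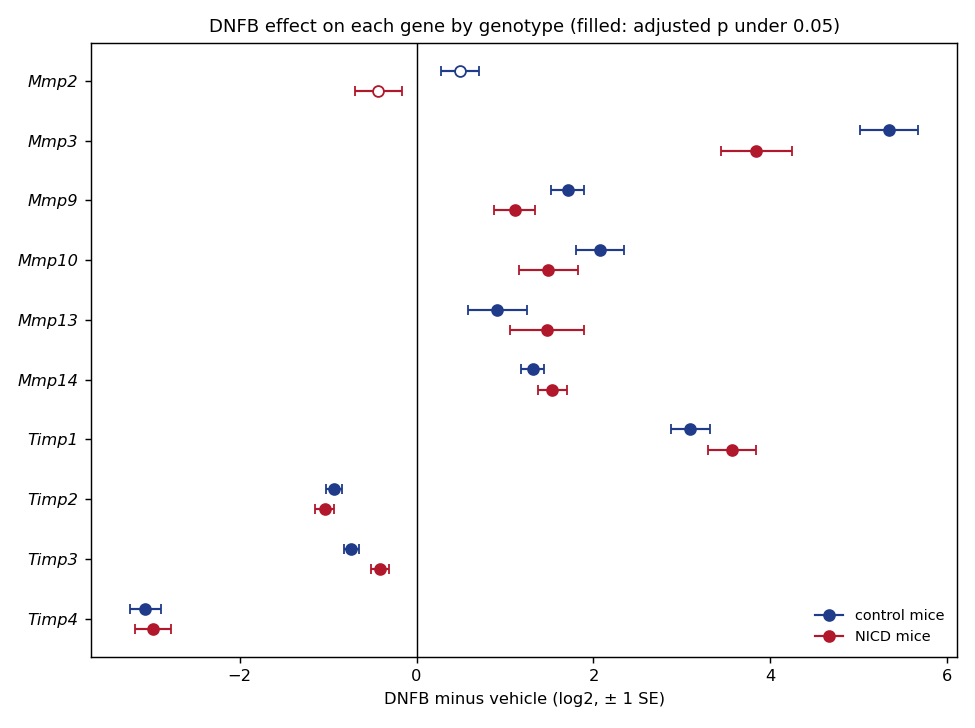
DNFB minus vehicle (log2, ± 1 SE) for each gene in control and in NICD mice; filled points passed an adjusted p of 0.05. Mmp3, Timp1 and Timp4 lie farthest from 0 in both genotypes, and Mmp2 lies on opposite sides of 0 without passing in either.

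The gelatinases Mmp2 and Mmp9 cut denatured collagen and the type IV collagen of basement membranes. Mmp2 was well above background in every group. In control mice its lowest, median and highest levels were 7.02, 7.35 and 8.17 in vehicle ears and 7.41, 7.82 and 8.52 in DNFB ears. The groups overlapped, and the difference of 0.49 ± 0.22 was not called (adjusted p = 0.0692). In NICD mice its levels were 7.52, 7.32, 7.08 and 6.95 in vehicle ears and 7.08, 6.93, 6.19 and 6.95 in DNFB ears. These overlapped too, with a difference of -0.43 ± 0.26 (adjusted p = 0.221). The control difference was close to the threshold and passed it under several alternatives. It was called with array weights, at 0.59 (adjusted p = 0.0245), and when control vehicle replicate 2, its highest vehicle array, or control DNFB replicate 3 or 6 was left out (adjusted p = 0.0145, 0.0487 and 0.0333).

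Mmp9 was not above background in control vehicle ears, where it ran from 2.83 through a median of 3.31 to 3.67. In control DNFB ears it ran from 4.34 through 5.11 to 5.51, so that every DNFB array lay above every vehicle array. The rise was 1.71 ± 0.19 (adjusted p = 2.22e-07). In NICD mice its levels were 3.54, 4.24, 3.68 and 3.52 in vehicle ears and 4.69, 5.18, 4.51 and 5.04 in DNFB ears. The 4 DNFB arrays again lay above the 4 vehicle arrays, with a rise of 1.11 ± 0.23 (adjusted p = 0.000569). Mmp9 is a known granule protease of neutrophils, and neutrophil markers rose after DNFB as well. Of the 12 neutrophil markers 6 were tested and all 6 rose in each genotype, S100a8 by 4.99 and 4.37 and S100a9 by 3.81 and 3.29. The summed linear level of the list ran from 113 to 136 in vehicle ears and 474 to 1922 in DNFB ears of control mice, and from 110 to 128 and 533 to 624 in those of NICD mice. Among control DNFB arrays the log2 sum was highest on replicate 5, at 10.91, where Mmp9 was 4.87, under its group median of 5.11. The log2 sum was lowest on replicate 3, at 8.89, where Mmp9 was also lowest, at 4.34. Replicate 5 was also the highest of its group in the log2 sum of keratinocyte markers, at 13.50. S100a8 and S100a9 had the highest control DNFB means of the neutrophil list, at 8.19 and 8.36, and so weigh most in its sum. Cxcr2 averaged 3.38 and 5.86 in vehicle and DNFB ears of control mice, and 3.41 and 5.56 in those of NICD mice. In the same order Itgam averaged 3.22, 5.47, 3.40 and 5.20, Retnlg 2.73, 4.86, 2.75 and 4.68, and Csf3r 3.77, 4.82, 3.52 and 4.83. Ly6g, Camp, Ngp, Ltf, Elane and Mpo were under the filter and were not tested. Ptprc, which encodes the CD45 sorted against, rose by 1.21 ± 0.26 in control and 1.56 ± 0.32 in NICD mice. The part of other cells in the rise of Mmp9 was not tested.

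The stromelysins Mmp3 and Mmp10 cut a wide range of matrix proteins and activate other MMP proenzymes. Mmp3 changed more than any other of the 10 genes in either genotype. In control mice its lowest, median and highest levels were 3.22, 3.77 and 5.24 in vehicle ears and 8.50, 9.57 and 9.89 in DNFB ears. No vehicle array came near the DNFB arrays, and 3 of the 6 vehicle arrays were under the background level. The rise was 5.34 ± 0.33 (adjusted p = 1.36e-10), or 40.5-fold as the arrays read it from a level near background. In NICD mice its levels were 3.43, 3.68, 4.03 and 3.32 in vehicle ears and 7.32, 8.17, 7.23 and 7.10 in DNFB ears. The vehicle arrays again lay at or near background and the DNFB arrays far above them, with a rise of 3.84 ± 0.40 (adjusted p = 3.01e-07), or 14.3-fold.

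Mmp10 was lower than the array median on most vehicle arrays. It ran from 3.05 through a median of 3.87 to 4.64 in control vehicle ears and from 5.13 through 6.06 to 6.64 in control DNFB ears. The groups did not overlap, and the rise of 2.07 ± 0.27 (adjusted p = 2.97e-06) started from a mean of 3.89, under the background level. In NICD mice its levels were 3.21, 3.80, 4.02 and 3.20 in vehicle ears and 4.92, 5.41, 4.32 and 5.55 in DNFB ears. All DNFB arrays were above all vehicle arrays, and the rise was 1.49 ± 0.34 (adjusted p = 0.00136).

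Mmp13, a collagenase that cuts intact fibrillar collagen, was under background in vehicle ears of both genotypes and varied between arrays after DNFB. It had passed the filter only through DNFB arrays, which its DNFB calls also use. All 6 control vehicle arrays were under background, from 3.12 through 3.36 to 3.55. The control DNFB levels by replicate were 4.90, 3.24, 3.41, 4.66, 5.53 and 3.68, so that 3 of the 6 stayed under background and overlapped with vehicle. The difference of 0.92 ± 0.34 was called (adjusted p = 0.0312). It was no longer called without control DNFB replicate 1, 4 or 5 (adjusted p = 0.0769, 0.0662 and 0.0874) or control vehicle replicate 3 or 5 (0.0567 and 0.0542), falling to 0.66 without control DNFB replicate 5. That array was also the highest of its group in the log2 summed levels of keratinocyte (13.50), neutrophil (10.91), fibroblast (10.40) and chondrocyte (8.16) markers. The part of those cell types in its Mmp13 was not tested. In NICD mice Mmp13 was 2.91, 3.08, 2.89 and 2.21 in vehicle ears and 4.29, 3.73, 5.31 and 3.65 in DNFB ears. All 4 vehicle arrays were under background, the groups did not overlap, and the rise was 1.47 ± 0.41 (adjusted p = 0.00759).

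Mmp14 encodes a membrane-bound MMP that activates the Mmp2 proenzyme at the cell surface together with the Timp2 protein. In control mice it ran from 8.02 through 8.48 to 8.71 in vehicle ears and from 9.23 through 9.81 to 9.97 in DNFB ears. The groups were apart, with a rise of 1.31 ± 0.13 (adjusted p = 7.04e-08), 2.48-fold. In NICD mice its levels were 8.63, 8.57, 8.65 and 8.95 in vehicle ears and 10.33, 10.15, 10.31 and 10.15 in DNFB ears. The NICD groups were apart by more than a log2 unit, and the rise was 1.54 ± 0.16 (adjusted p = 2.7e-07), 2.90-fold. Mmp14 rose in both genotypes, while Mmp2 was called in neither.

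Timp1, an inhibitor induced in many inflamed tissues and encoded on the X chromosome, rose with the proteases. In control mice it ran from 4.44 through 4.96 to 5.64 in vehicle ears and from 7.11 through 8.19 to 8.53 in DNFB ears. The groups were far apart, with a rise of 3.10 ± 0.22 (adjusted p = 6.7e-10), 8.55-fold. In NICD mice it was 4.46, 4.00, 4.46 and 4.68 in vehicle ears and 8.03, 8.08, 8.07 and 7.69 in DNFB ears. The rise there was 3.57 ± 0.27 (adjusted p = 5.77e-09), 11.8-fold, again with no overlap.

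Timp2, which inhibits MMPs widely and also takes part in Mmp2 activation, fell in both genotypes. In control mice it ran from 9.33 through 9.52 to 9.59 in vehicle ears and from 8.43 through 8.48 to 8.85 in DNFB ears. It fell by 0.94 ± 0.09 (adjusted p = 3.96e-08) with no overlap. In NICD mice it was 9.31, 9.16, 8.98 and 9.10 in vehicle ears and 8.22, 8.004, 8.04 and 8.13 in DNFB ears. The 4 DNFB arrays were all below the 4 vehicle arrays, and it fell by 1.04 ± 0.11 (adjusted p = 3.16e-07).

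Timp3, the inhibitor that binds to the matrix and also blocks some ADAM and ADAMTS proteases, showed the smallest called changes of the 10 genes. In control mice it ran from 11.04 through 11.17 to 11.19 in vehicle ears and from 10.17 through 10.42 to 10.60 in DNFB ears. The vehicle arrays were tightly grouped and all above the DNFB arrays, and it fell by 0.74 ± 0.08 (adjusted p = 4.29e-07). In NICD mice it was 11.07, 11.15, 10.96 and 11.11 in vehicle ears and 10.75, 10.63, 10.62 and 10.65 in DNFB ears. These groups did not overlap either, and it fell by 0.41 ± 0.10 (adjusted p = 0.00343).

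Timp4, the inhibitor with the most restricted tissue distribution, fell more than the other inhibitors. In control mice it ran from 8.88 through 9.24 to 9.96 in vehicle ears and from 5.75 through 6.22 to 6.73 in DNFB ears. It fell by 3.06 ± 0.17 (adjusted p = 4.48e-11), and no DNFB array reached the lowest vehicle array. In NICD mice it was 9.74, 9.56, 9.46 and 9.29 in vehicle ears and 6.37, 6.53, 6.67 and 6.55 in DNFB ears. It fell by 2.98 ± 0.21 (adjusted p = 2.98e-09), with all 4 DNFB arrays below all 4 vehicle arrays. The level after DNFB stayed well above background in both genotypes.

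Timp1, Timp3 and Timp4 lie within the synapsin genes Syn1, Syn3 and Syn2, and the strand that the probe sets read is not given in the sources used here. Syn2, the host of Timp4, fell by 1.02 ± 0.15 in control mice (adjusted p = 8.88e-06), from a mean level of 4.96 to 3.94. In NICD mice Syn2 differed by -0.44 ± 0.18 (adjusted p = 0.0596). Syn1 differed by -0.07 and 0.35 (adjusted p = 0.751 and 0.173), beside the rises of Timp1, and Syn3 did not pass the filter. Timp2 holds Cep295nl within its bounds.

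The levels of other cell types moved with DNFB as well, as the plot of summed marker levels shows. Of the 10 pericyte and smooth muscle markers 8 fell in control and 6 in NICD mice, with differences of -0.69 and -0.85 for Pdgfrb and of -0.81 and -1.56 for Rgs5. Their median summed linear level was 6732 and 3976 in vehicle and DNFB ears of control mice and 5623 and 2721 in those of NICD mice, the same direction as that of Timp2, Timp3 and Timp4. Of the 12 endothelial markers 10 fell in control mice, while in NICD mice 6 fell and 1 rose. Their median sums were 18345, 14098, 18252 and 15756 in the same order.

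Of 9 fibroblast markers tested, Pdgfra and Lum rose and Fap fell in both genotypes, and Dpt fell in NICD mice. In vehicle and DNFB ears, Lum averaged 5.06 and 7.15 in control mice and 4.82 and 6.51 in NICD mice. Pdgfra averaged 4.83, 6.36, 3.88 and 4.75 in the same order. Fap differed by -0.57 and -1.11 (adjusted p = 0.00927 and 0.000284), and the median sums of the list were 889, 777, 865 and 697. Of 10 keratinocyte markers tested, Krt6a, Krt16 and Krt17 rose and Krt15 fell in both genotypes, while in control mice Krt14 rose and Krt10 fell. In vehicle and DNFB ears, Krt16 averaged 2.34 and 8.28 in control mice and 2.97 and 8.07 in NICD mice. In the same order Krt6a averaged 3.52, 8.34, 3.60 and 8.42, and Krt17 5.28, 8.89, 5.68 and 8.996. Krt16 and Krt6a thus started near or under background. Krt15 differed by -2.03 and -1.79 (adjusted p = 2.01e-06 and 0.000143), and the median sums of the list were 4529, 5582, 4586 and 4918. Krt14 averaged 11.08, 11.64, 11.08 and 11.30, and was thus read well above background in every group. Chondrocyte sums had medians of 170, 188, 110 and 112. Of the macrophage and monocyte markers 9 of 12 were tested, and 3 rose and 1 fell in control mice and 2 rose in NICD mice. Of the T and NK cell markers 3 passed the filter, and of the mast cell markers 1. In these bulk samples fewer cells of a type and less RNA per cell cannot be told apart, and the part of these cell types in the changes of the 10 genes was not tested.

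**Figure D3:**
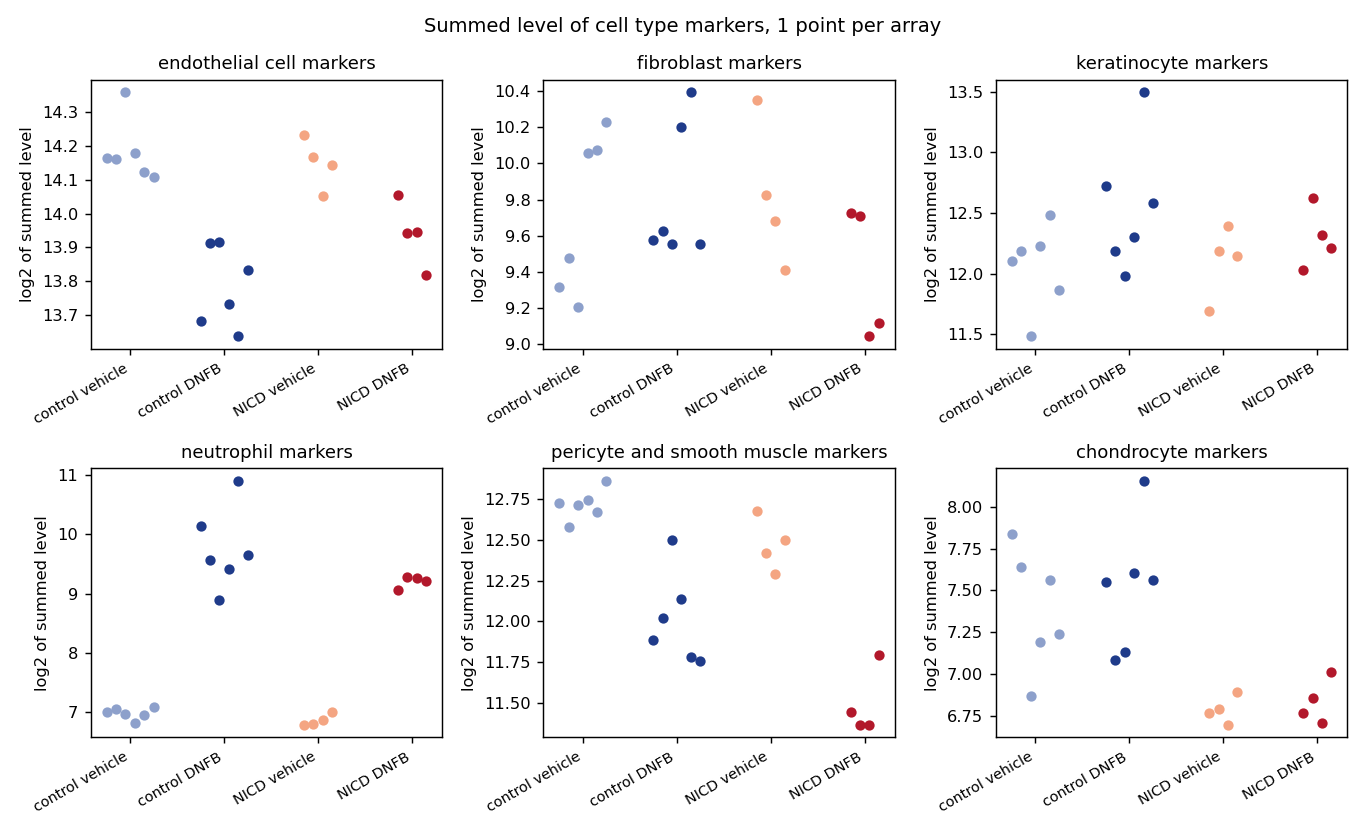
Log2 of the summed linear level of 6 marker lists, 1 point per array, by group; each panel has its own axis. Neutrophil sums of DNFB ears lie above all vehicle ears, and the highest keratinocyte, neutrophil, fibroblast and chondrocyte points of control DNFB ears are those of replicate 5.

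The NICD and control mice were compared next within DNFB ears, to ask which of the 10 genes differed with active Notch1 after challenge. On the deposited values 4 genes were lower in NICD mice (Mmp2, Mmp3, Mmp10 and Timp2) and 2 higher (Mmp14 and Timp3). Among all probe sets 40.5% were called, 35.1% lower and 5.45% higher, and the median over all probe sets was -0.27. After centring, 2 of the 10 genes were lower (Mmp2 and Mmp3) and 3 higher (Mmp14, Timp3 and Timp4), beside 28.8% of all probe sets, 8.12% lower and 20.7% higher, and the all-probe median was 0.10. Mmp2 and Mmp3 were thus lower, and Mmp14 and Timp3 higher, on both scales. On the deposited values the genotypes did not overlap in 5 of the 10 genes, as in 25% of all probe sets.

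Mmp3 of DNFB ears had lowest, median and highest levels of 8.50, 9.57 and 9.89 in control mice against 7.10 to 8.17 in NICD mice, without overlap. The difference was -1.86 ± 0.37 (adjusted p = 0.000719), and -1.49 after centring (adjusted p = 0.00517). Mmp2 of DNFB ears differed by -1.13 ± 0.24 (adjusted p = 0.00131), and by -0.75 after centring (adjusted p = 0.0246). Its highest NICD DNFB array, at 7.08, was below its lowest control DNFB array, at 7.41. Mmp10 differed by -0.91 ± 0.31 with overlapping groups (adjusted p = 0.0239), and by -0.54 after centring, which was not called (adjusted p = 0.199). Its call on the deposited values was lost without control DNFB replicate 6, NICD DNFB replicate 1 or NICD DNFB replicate 3 (adjusted p = 0.051, 0.057 and 0.112).

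Mmp14 of DNFB ears was higher in NICD mice on every array, 10.15 to 10.33 against 9.23 to 9.97. The difference was 0.48 ± 0.15 (adjusted p = 0.0132), and 0.85 after centring (adjusted p = 0.00046). Timp3 was higher by 0.25 ± 0.09 (adjusted p = 0.0384), and by 0.62 after centring (adjusted p = 0.000107). Its NICD DNFB arrays, 10.62 to 10.75, lay just above its highest control DNFB array at 10.60, and on the deposited values the call was lost in 7 of the 20 fits that left out 1 array, those without control DNFB replicate 2, 4 or 5 or any 1 NICD DNFB array, with adjusted p-values up to 0.104.

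Timp2 was lower in NICD DNFB ears on the deposited values, at -0.45 ± 0.10 (adjusted p = 0.00166), with no overlap, and differed by -0.08 after centring (adjusted p = 0.6). Timp4 differed by 0.25 ± 0.19 (adjusted p = 0.312) and was higher by 0.62 after centring (adjusted p = 0.0162). With quantile normalization Timp2 was still called lower in these ears, and Timp4 was not called. Mmp9 differed by -0.17 and by 0.20 after centring, Timp1 by -0.08 and 0.29, and Mmp13 by 0.0083 and 0.38, none of them called on either scale. The 95% interval of the deposited difference ran from -0.60 to 0.26 for Mmp9, from -0.59 to 0.43 for Timp1 and from -0.78 to 0.80 for Mmp13, and differences within these bounds remain possible. In NICD DNFB ears 10 of the 12 endothelial markers were higher after centring, and 3 on the deposited values, while of the 10 pericyte and smooth muscle markers 2 and 3 were lower. Another of these, Higd1b, was higher on both scales, by 1.09 after centring and by 0.72 on the deposited values (adjusted p = 0.000467 and 0.00725). The 9 fibroblast markers tested did not move as one: on the deposited values 2 were lower, Pdgfra and Pi16, and 7 were not called, and after centring Pdgfra was lower and Thy1 higher. Pdgfra averaged 6.36 in control and 4.75 in NICD DNFB ears and was lower on both scales (adjusted p = 0.000177, and 0.00226 after centring). Median summed levels in control and NICD DNFB ears were 777 and 697 for fibroblast, 5582 and 4918 for keratinocyte and 780 and 605 for neutrophil markers. The part of these cell types in the genotype differences was not tested.

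In vehicle ears the genotypes were compared in the same way. On the deposited values only Timp2 was called, at -0.35 ± 0.10 (adjusted p = 0.0106), beside 35.9% of all probe sets, 33% lower and 2.88% higher, with an all-probe median of -0.28. After centring, Timp2 differed by -0.02 (adjusted p = 0.902), and Mmp9 and Mmp14 were higher by 0.76 (adjusted p = 0.0177) and 0.59 (adjusted p = 0.0127), beside 18.4% of all probe sets, 11.9% higher and 6.54% lower. The centred rise of Mmp9 was measured at levels near background, 3.52 to 4.24 in NICD against 2.83 to 3.67 in control vehicle ears. Mmp14 was 8.57 to 8.95 in NICD and 8.02 to 8.71 in control vehicle ears, which overlapped. With quantile normalization Mmp14 was not called in vehicle ears. The genotypes did not overlap in 2 of the 10 genes, Timp2 and Mmp13, as in 24.1% of all probe sets, and Mmp13 was under background in both. Timp1 differed by -0.55 ± 0.24 (adjusted p = 0.0842), and was called when replicate 2 of control vehicle or replicate 3 of control DNFB was left out (adjusted p = 0.0463 and 0.0368).

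**Figure D4:**
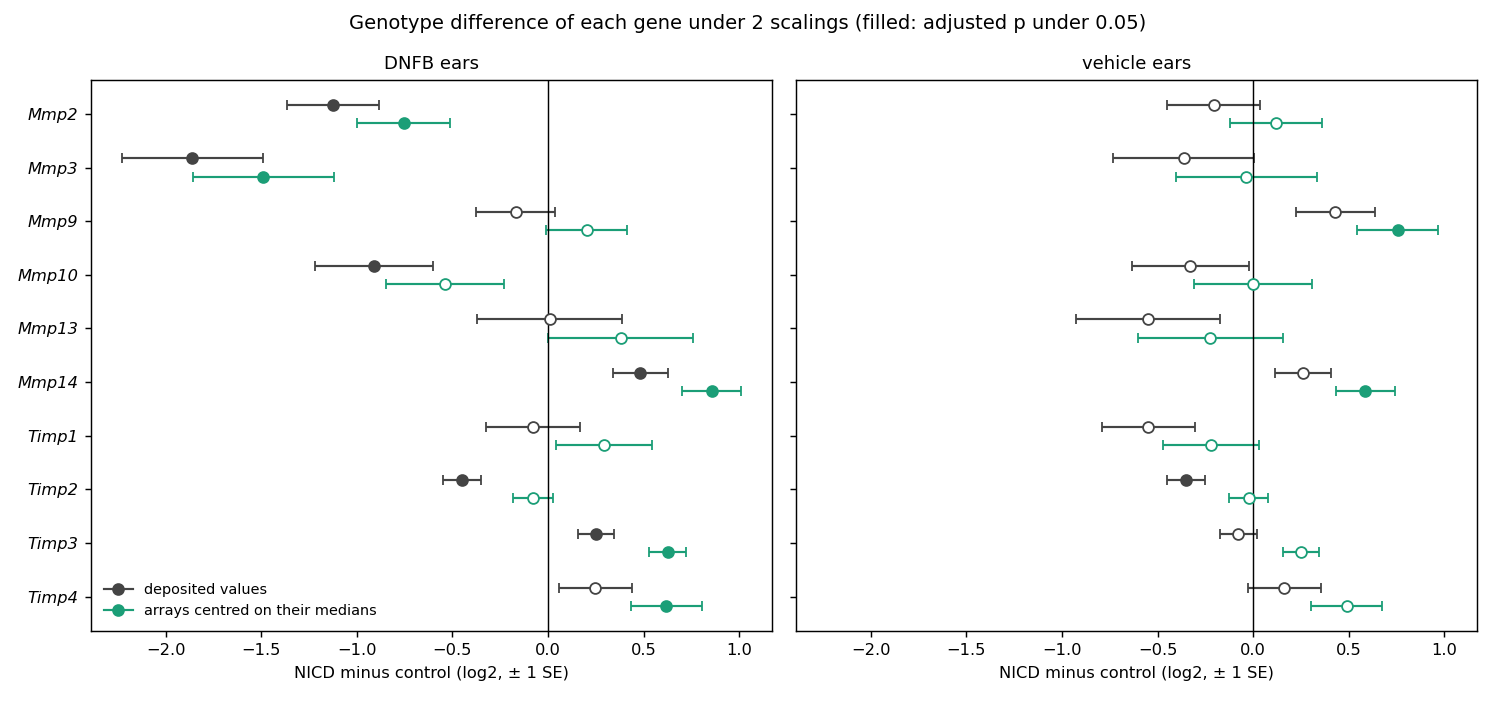
NICD minus control (log2, ± 1 SE) for each gene in DNFB and in vehicle ears, on the deposited values and with arrays centred on their medians; filled points passed an adjusted p of 0.05. Mmp2 and Mmp3 lie left of 0 and Mmp14 and Timp3 right of 0 on both scales in DNFB ears, whereas Timp2 moves to near 0 with centring.

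The difference of the DNFB effects, NICD minus control, was tested for each gene. None of the 10 was called by limma, and over all probe sets 0.0134% (2 of 14886) were. At an unadjusted p under 0.05 there were 3 of the 10 genes, beside 10.6% of all probe sets. The difference of effects of Mmp3 was -1.50 ± 0.52 (unadjusted p = 0.00945, adjusted p = 0.309), with a 95% interval of -2.58 to -0.41. The difference of effects was -0.92 ± 0.34 for Mmp2 (unadjusted p = 0.0141, adjusted p = 0.339; interval -1.63 to -0.21), and 0.33 ± 0.13 for Timp3 (unadjusted p = 0.0224, adjusted p = 0.377; interval 0.05 to 0.61).

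For the other 7 genes the 95% interval of the difference of effects included 0. The narrowest were those of Timp2, from -0.40 to 0.19, and Mmp14, from -0.21 to 0.65. They were wider for Timp4, from -0.48 to 0.65, Timp1, from -0.25 to 1.19, and Mmp9, from -1.21 to 0.01. The widest were those of Mmp10, from -1.49 to 0.32, and Mmp13, from -0.56 to 1.67. Equal responses of the genotypes are not shown by these intervals.

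The order of the group means differed between the genes. All neighbouring groups overlapped for Mmp2 and Mmp10, and for Mmp13 all but control vehicle and NICD vehicle ears. Mmp3 was highest in control DNFB ears, then NICD DNFB ears, with no overlap between these, and its vehicle groups overlapped each other below. Mmp9 and Timp1 also led in control DNFB ears, but their DNFB groups overlapped between the genotypes. Mmp14 was highest in NICD DNFB ears, then control DNFB ears, without overlap. The 4 Timp2 groups did not overlap with their neighbours, in the falling order of control vehicle, NICD vehicle, control DNFB and NICD DNFB ears. The Timp2 differences between genotypes were not called after centring. With quantile normalization Timp2 was still called lower in NICD DNFB ears, but not in NICD vehicle ears (-0.26, adjusted p = 0.0873). Timp3 and Timp4 had overlapping vehicle groups at the top.

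For each gene the probe sets with the most similar pattern over the 20 arrays were found, by the root mean square (RMS) difference of mean-subtracted log2 values. Cxcl5, a neutrophil-attracting chemokine, was nearest to Mmp3 at 0.66 log2 units, followed by Sprr1a, a cornified envelope protein of keratinocytes, at 0.68 and Defb14, an antimicrobial peptide, at 0.73. Sod3, Cstb and Trem1 were nearest to Mmp10, at 0.44, 0.44 and 0.48. Ctsk, a collagen-cutting cysteine protease, was nearest to Mmp2 at 0.31, and Calhm6 to Timp1 at 0.37. C1qtnf9, Npy1r and Cd300lg were nearest to Timp4, at 0.35, 0.37 and 0.37. Lamb2, a laminin chain, was nearest to Timp2 at 0.13, Cyyr1 to Timp3 at 0.12, Praf2 to Mmp14 at 0.19, Psmd14 to Mmp9 at 0.31 and Klk13 to Mmp13 at 0.42. All arrays share the DNFB contrast, and the nearness is a description.

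Of 17 other MMP genes 10 were tested, and in control mice 3 rose after DNFB: Mmp19 by 1.00 ± 0.28, Mmp25 by 0.81 ± 0.22 and Mmp8, the neutrophil collagenase, by 0.77 ± 0.25. Mmp8 averaged 3.12 in vehicle and 3.89 in DNFB ears of control mice, under background in both. Mmp19 and Mmp25 started under background, at 3.83 and 3.71. Mmp28 fell in both genotypes, with a difference of -1.39 in each (adjusted p = 0.000163 in control and 0.00154 in NICD mice) and was the only one of the other MMP genes called in NICD mice. The median difference of the 10 was 0.04 and -0.05. Of the chromosome 9 cluster, Mmp1a, Mmp1b, Mmp7, Mmp20 and Mmp27 were under the filter, and Mmp12 differed by 0.29 and 0.17 (adjusted p = 0.185 and 0.597), beside the rises of Mmp3, Mmp10 and Mmp13.

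Of 9 tested genes of the system that activates MMP proenzymes, 5 rose and 1 fell in control mice, and 3 rose and 1 fell in NICD mice, with list medians of 0.60 and 0.42. Plau, the urokinase that makes plasmin, rose by 2.43 ± 0.09 and 2.21 ± 0.11 (adjusted p = 4.67e-13 and 7.27e-11). Its receptor Plaur rose by 2.05 ± 0.11 and 2.52 ± 0.13. Serpinb2, an inhibitor of urokinase, rose by 1.94 ± 0.27 in control mice and differed by 0.79 ± 0.33 in NICD mice (adjusted p = 0.0648). Furin, which activates the Mmp14 proenzyme inside the cell, rose by 0.60 ± 0.09 and 0.94 ± 0.10. Pcsk7 fell in control mice, at -0.62 ± 0.15, and Pcsk6 in NICD mice, at -0.71 ± 0.24.

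Among 11 tested partners and other inhibitors, 4 rose in each genotype, while 2 fell in control and 1 in NICD mice. Cd44, a surface receptor that binds the Mmp9 and Mmp14 proteins, rose by 3.05 ± 0.20 and 2.25 ± 0.24. Tfpi2, an inhibitor of plasmin, rose by 2.01 ± 0.25 and 1.70 ± 0.30, and Thbs1, a matrix protein that binds MMPs, by 1.58 ± 0.14 and 1.62 ± 0.17. Spock2 fell, with differences of -1.62 ± 0.28 and -2.01 ± 0.34. Reck, a membrane-anchored MMP inhibitor, differed by -0.21 ± 0.11 and -0.16 ± 0.14 (adjusted p = 0.136 and 0.402).

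The related ADAM and ADAMTS genes, the proteins of only some of which Timp3 inhibits, changed in both directions. Of 13 ADAMTS genes tested, 5 rose and 6 fell in each genotype, with medians of -0.26 and -0.22. Adamts5 rose by 1.81 ± 0.26 and 1.43 ± 0.32, Adamts8 by 1.72 ± 0.15 and 1.42 ± 0.19, and Adamts9 by 1.55 ± 0.12 and 2.11 ± 0.15. Adamts8 started near background in control mice, at a mean of 4.07, and under it in NICD mice, at 2.53. The largest falls were those of Adamts7 in control mice, at -1.21 ± 0.20, and of Adamts10 in NICD mice, at -1.61 ± 0.21. Of 9 ADAM genes 4 rose and 3 fell in control mice, and 4 rose and 1 fell in NICD mice. Adam8, known from leukocytes, rose by 2.48 ± 0.32 and 2.06 ± 0.40, and Adam33 fell, with differences of -0.77 ± 0.15 and -1.08 ± 0.19.

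Matrix substrates were called in both directions, as were all probe sets. Of 24 tested, 7 rose and 5 fell in control mice, and 8 rose and 7 fell in NICD mice, with medians of -0.12 and -0.0064. Over all probe sets 23.7% were higher and 23.6% lower in control mice, and 20% and 18.1% in NICD mice. Basement membrane genes were among the rises: Nid2 by 1.03 ± 0.18 and 1.19 ± 0.22, Col18a1 by 0.89 ± 0.16 and 1.42 ± 0.20, and Col4a1 by 0.62 ± 0.08 and 0.90 ± 0.09. Dcn, which encodes the proteoglycan decorin, rose by 0.85 ± 0.21 in control mice and differed by 0.35 ± 0.26 in NICD mice (adjusted p = 0.319). The laminin chains Lamb2 and Lama5 fell, with differences of -0.89 ± 0.10 and -0.95 ± 0.12 for Lamb2 and of -0.95 ± 0.10 and -0.68 ± 0.13 for Lama5. Col6a1, a collagen VI chain, fell in both, at -0.44 ± 0.14 and -1.02 ± 0.17. Eln, the elastin gene, fell by 1.05 ± 0.18 in control mice and differed by -0.52 ± 0.22 in NICD mice (adjusted p = 0.068).

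The mRNA of the AP-1 subunits, the proteins that bind the motif shown for Mmp3, Mmp10 and Mmp13, mostly did not rise at 24 hours. Of the 10 listed, Fosl1 had no probe set with a single symbol and was not tested. Of the 9 tested, 1 rose and 5 fell in control mice, and 2 rose and 5 fell in NICD mice, with medians of -0.34 and -0.35. Among the falls, Fosb differed by -1.18 ± 0.12 and -1.10 ± 0.14, Fos by -0.89 ± 0.11 and -1.001 ± 0.14, and Jun by -0.72 ± 0.10 and -0.51 ± 0.12. Batf3 rose by 1.22 ± 0.22 and 2.09 ± 0.27, and Batf by 0.56 ± 0.18 in NICD mice. Subunit mRNA at a single time does not measure AP-1 protein or activity. The part of AP-1 in the rises of Mmp3, Mmp10 and Mmp13 was not tested.

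**Figure D5:**
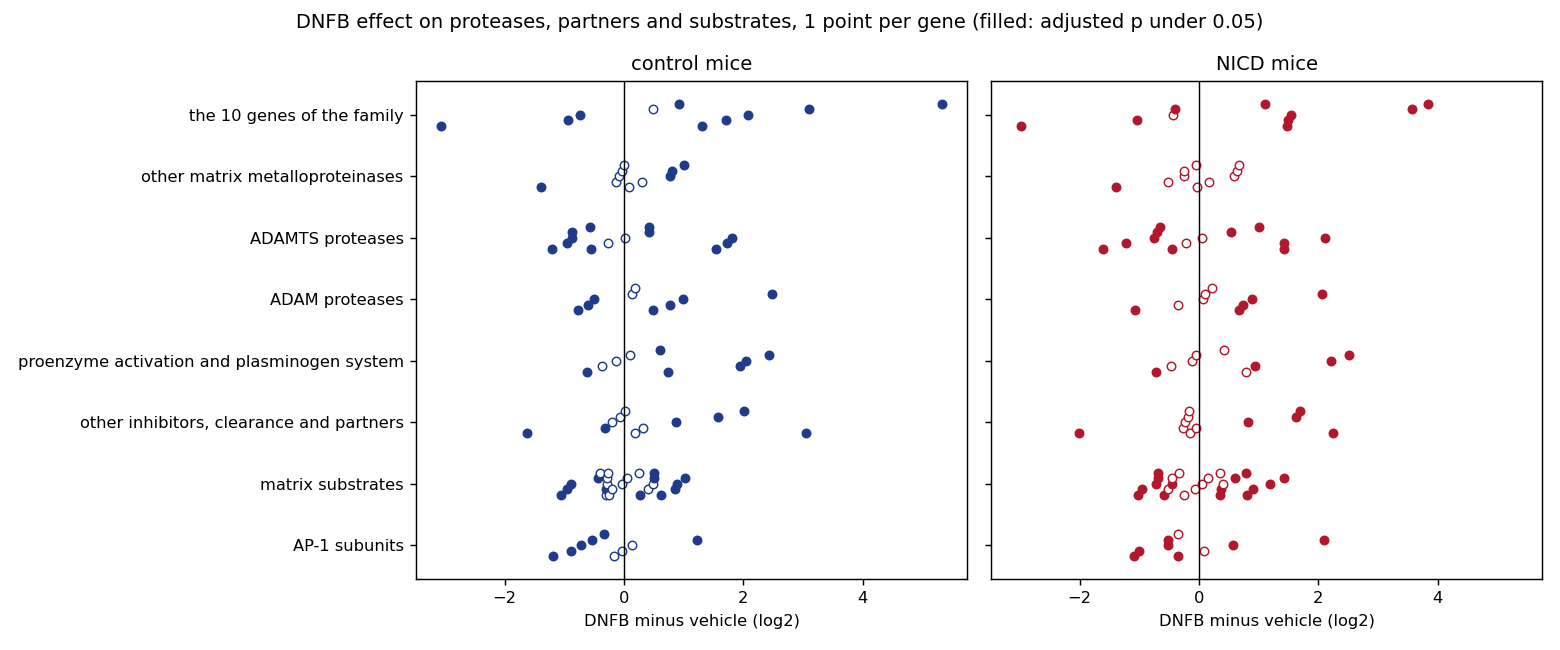
DNFB minus vehicle (log2) in control and NICD mice for the 10 genes and for 7 lists of related genes, 1 point per gene, filled where the adjusted p was under 0.05. Mmp3 lies farthest to the right and Timp4 farthest to the left of all genes plotted in both panels.

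Between NICD and control DNFB ears 30 of 85 related genes tested were lower and 7 higher on the deposited values. Among all probe sets 35.1% were lower and 5.45% higher. After centring 4 of the 85 were lower and 17 higher, beside 8.12% lower and 20.7% higher among all probe sets. In these ears 9 of 13 ADAMTS genes were lower, but 1 after centring, Adamts8, at -1.84 ± 0.17 on the deposited values and -1.46 after centring (adjusted p = 7.58e-07 and 5.65e-06). Serpinb2 was lower, at -1.40 ± 0.30, and -1.03 after centring (adjusted p = 0.00128 and 0.0136). Among substrates Col18a1 and Eln were higher, Col18a1 by 1.44 ± 0.18 and 1.82 after centring, and Eln by 0.75 ± 0.20 and 1.12 after centring. Of the other MMPs, Mmp12, Mmp19 and Mmp24 were lower on the deposited values but did not pass after centring (adjusted p = 0.105, 0.207 and 0.797). In vehicle ears Adamts8 was again lower, at -1.54 ± 0.17, and -1.21 after centring, and Col18a1 higher, by 0.92 ± 0.18 and by 1.25 after centring. Adamts8 averaged 2.53 in NICD vehicle ears, under background, and 4.07 in control vehicle ears, just above it. Its DNFB means were 3.95 in NICD and 5.79 in control mice.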

How the data were processed

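The authors made the log2 RMA values per probe set in Affymetrix Expression Console, per the submitters' processing notes; versions, options and the array's genome build are not given in the sources used here. From 1 ng of total RNA, per the labels' protocols, cRNA was amplified with the WT Pico kit. The deposited log2 values were used as given, without raw intensities. The number of arrays limits the precision, and arrays of a group correlated at 0.948 to 0.971.

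Of 41345 probe sets, 23521 carry 1 gene symbol, 1814 several and 16010 none in the platform annotation; only those with 1 were used. Probe sets above the array median on at least 4 arrays were kept, 14886 probe sets of 14178 genes. limma 3.58.1 in R 4.3.3 was fitted to all 20 arrays with 1 mean per group, and p-values were adjusted by Benjamini-Hochberg over all probe sets kept, with a threshold of 0.05. The 5 comparisons were the DNFB effect within control and within NICD mice, the genotype difference within vehicle and within DNFB ears, and how far the DNFB effect differed between genotypes. The script was tested on simulated data with known differences.

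The 10 genes, the 7 lists of related genes and the 9 marker lists were chosen with earlier results of these data known. All 10 genes were named; from each list of related genes at most the 3 largest rises and falls of a comparison were named, and other genes of these lists were named after their values were seen. Like patterns were the 3 nearest genes for each of the 10. Summed marker levels are sums of linear values. Promoters and neighbours are from RefSeq (GRCm38.p6). No label ties the replicate numbers to mice, so they were not taken as pairs. Same-numbered arrays of a genotype had deviations correlating at 0.042 to 0.269, all positive, and pairing remains possible. A replicate block was therefore run as an alternative. Python 3.11.15 with matplotlib 3.10.9 drew the plots.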

Additional observations from a re-analysis of the deposited data

Results flagged for a closer look

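Of the 40 sets of values (10 genes in 4 groups), 4 held an array far from the others of its group, and chance gives about 1 in 20. Mmp2 in NICD DNFB replicate 3 was at 6.19, the nearest other array being at 6.93. Mmp14 in control DNFB replicate 3 was at 9.23, the nearest other at 9.72, and Timp1 in NICD DNFB replicate 4 was at 7.69, the nearest other at 8.03. Timp3 in control vehicle replicate 3 was at 11.04, the nearest other at 11.14. Without NICD DNFB replicate 3, Mmp2 stayed lower in NICD than in control DNFB ears on the deposited values.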

How the results depend on the processing

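Both DNFB comparisons kept their call counts within 1.5 times under every alternative run: no filter, a filter at the 60th percentile, centred arrays, quantile normalization, array weights, variances fitted with a trend and robustly, the 2 groups compared alone, the mean of a gene's probe sets, a replicate block and each array left out. Of the 10 genes 9 were called in each, but in control mice 10 with array weights or with the replicate number as a fixed block, which added Mmp2 (0.49, adjusted p = 0.0215 with the block), and 8 to 10 with an array left out. With the block, 9 were called in NICD mice and 0 in the difference of DNFB effects; as a random block the 5 counts were 9, 9, 6, 1 and 0. Same-numbered arrays correlated best with each other in both directions for 5 of 10 numbers, a hint from the data and not the design. The fixed block could not be fitted to the NICD against control comparisons, since the numbers are nested within genotype.

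In vehicle ears the NICD against control count of 1 became 2 with centred arrays, array weights or only the groups compared, and 1 to 2 with an array left out. Quantile normalization lost Timp2 there (adjusted p = 0.0873) and called Mmp9 higher by 0.70 (adjusted p = 0.0262). In DNFB ears it lost Mmp10 (adjusted p = 0.194), and Timp3 was lost with no filter (adjusted p = 0.0572) or only the groups compared (adjusted p = 0.106). Quantile normalization kept the call of Timp2 in DNFB ears. Timp4 in DNFB ears and Mmp14 in vehicle ears were called only with centring. None of the 10 genes was called in the difference of DNFB effects under any alternative run by limma, while over all probe sets 27 were called with trended and robust variances, 17 with array weights, 20 with the random and 3 with the fixed block.

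Signs that turned belonged to differences that were not called, and the cause was not tested. With centred arrays, NICD minus control became 0.20 for Mmp9 and 0.29 for Timp1 in DNFB ears, and 0.12 for Mmp2 and 0.25 for Timp3 in vehicle ears. With quantile normalization it became 0.23 for Mmp9 and 0.048 for Timp1 in DNFB ears, and with array weights -0.13 for Mmp13. With arrays left out in turn, it ran from -0.35 to 0.27 for Mmp13 and from -0.27 to 0.018 for Timp1 in DNFB ears, and the difference of DNFB effects from -0.037 to 0.18 for Timp4. Without NICD vehicle replicate 4, whose labels conflict, the 5 counts were 9, 9, 6, 1 and 0; without control DNFB replicate 5 they were 8, 9, 5, 1 and 0. Mmp3, Mmp9, Mmp10 and Mmp13 near background limit what their vehicle levels show.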
